A study of Homo sapiens with 7 samples.

Results

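The genes described are NGFR, the neurotrophin receptor known as p75NTR, with its ligands and partners. The 8 members were picked by symbol from a table of 60591 gene rows, and the group was put together because NGFR rose about 10.3-fold under diclofenac. The values that chose it come from the same contrast that is described here, so the members' changes are given as a description with no test. All 8 symbols had a row, 7 had at least 1 count in some library, and 4 (NGFR, NTRK2, SORT1 and MAGED1) passed the filter on low counts. NTRK3, BDNF, NTF3 and NTF4 had too few counts.

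The cells are labelled TE11, a human line that the labels call esophageal squamous cell carcinoma, grown in medium with serum. The vehicle group (n = 3 libraries) received 0.07% DMSO and the diclofenac group (n = 4) received 200 µM diclofenac, a nonsteroidal anti-inflammatory drug that inhibits cyclooxygenases, with a treatment time of 48 h. No genetic change or second agent is named for either group. The labels do not say that libraries came from separate cultures, so p-values and SDs cover the spread between libraries alone, and that spread may be technical. Total counts ran from 19878696 to 26490829 per library.

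Neurotrophins such as BDNF, NTF3 and NTF4 are secreted growth factors made as longer precursors. The mature forms act through the TRK receptor kinases, NTRK2 for BDNF and NTF4, and NTRK3 for NTF3. NGFR, a member of the TNF receptor family with an intracellular death domain, binds every neurotrophin and has no kinase of its own. With the sorting receptor SORT1 (sortilin) it forms a receptor for the precursors, and MAGED1 (NRAGE) is an adaptor that binds its intracellular part. In stratified epithelia such as the esophagus, NGFR is known as a marker of basal cells.

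The label was set against marker genes of squamous epithelium. Of 12 markers, KRT4 and KRT6A had no count in any library. The basal keratins KRT5, KRT14 and KRT15 had 0, 3 and 0 counts in all vehicle libraries and 1, 2 and 3 in all diclofenac libraries, and TP63 had 2 and 5. SOX2, ITGA6 and ITGB4 alone reached 1 CPM (a gene's counts scaled to a fixed library total) in all libraries. KRT13 had 5 and 14. COL17A1, a collagen of basal cells, went the way of NGFR without overlap, with 1 vehicle and 31 diclofenac counts (ratio of count rates 21.5, 95% exact interval 3.58 to 876, counting error only). DSG3, a desmosome protein, had 0 and 5 counts, also without overlap. No diclofenac library reached 3 counts of DSG3 (0.0386 to 0.0939 normalized CPM). Over all tested genes 58.5% did not overlap between the groups. Tested genes under 0 log2 CPM leaned upward, with a median log2 fold change of 0.408. Of the markers at 1 CPM in all libraries, SOX2 was lower, unlike NGFR, with a log2 fold change of -0.40 (SE 0.0897). ITGA6 was higher (0.22, SE 0.0555), and ITGB4 was not called (0.28, SE 0.122). All of these except SOX2, ITGA6 and ITGB4 stayed below the filter for testing. The keratins and TP63 that define squamous cells were thus absent or nearly so in both groups. The markers go against the labelled cell type, and the identity of the line was not tested, so the values describe cells labelled TE11.

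NGFR was weakly expressed under vehicle and about 10-fold higher in every diclofenac library. It had 48, 47 and 47 counts in vehicle replicates 1, 2 and 3, and 493, 530, 558 and 524 counts in diclofenac replicates 1 to 4. In normalized CPM, which are CPM of the library after scaling by TMM factors, this was 1.95, 2.29 and 2.10 against 23.1, 20.9, 21.5 and 21.0. The lowest diclofenac library stood far above the highest vehicle library, and the libraries within a group lay close together (2.11 ± 0.169 and 21.7 ± 1.03, SD). The log2 fold change was 3.36 (SE 0.0972). In bulk RNA, a larger number of cells with the transcript and more transcript per cell cannot be told apart.

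The change in NGFR chose the group, so its high rank among all genes follows from that choice and is only described. Of 18311 tested genes, 26 had a larger log2 fold change. A single gene of those 26 had a vehicle mean of at least 1 normalized CPM, and it is also the single one that matched or exceeded NGFR in its diclofenac mean. It was NUPR1, a stress-response gene named here after its values were seen, at 1.24 ± 0.151 and 22.8 ± 2.35 normalized CPM. Within 0.5 log2 CPM of the mean level of NGFR lay 1885 other genes, with a median log2 fold change of 0.0794. Rows that overlap NGFR in the annotation held almost nothing: AC006487.1 on the opposite strand had 3 counts, and AC015656.1 and MIR6165 had 1 each, in all diclofenac libraries together.

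**Figure D1:**
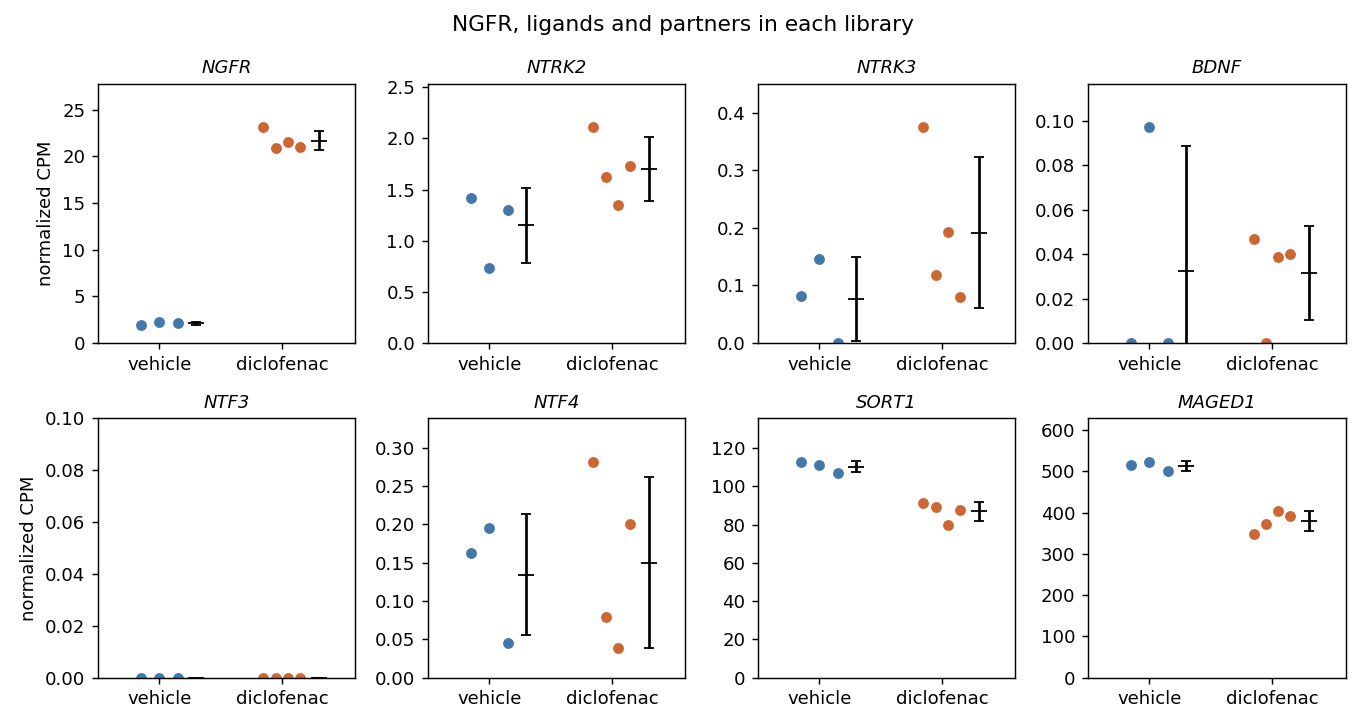
Normalized CPM (y axis, linear from 0, its own range in each panel) of the 8 members in each vehicle (blue, n = 3) and diclofenac (orange, n = 4) library, with the mean and SD in black. NGFR moved from about 2.11 to 21.7, SORT1 and MAGED1 were lower with no overlap, and the other members overlapped between the groups or had no count.

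Among the kinase receptors, NTRK2 was weakly expressed and did not pass the threshold for a call. It had 1.42, 0.730 and 1.30 normalized CPM under vehicle and 2.11, 1.62, 1.35 and 1.73 under diclofenac. The groups overlapped, since diclofenac replicate 3 lay below vehicle replicate 1. The log2 fold change was 0.53 (SE 0.226), and the 1618 other genes within 0.5 log2 CPM of its level had a median of 0.284. Whether NTRK2 passed depended on the setting: it did with upper-quartile factors, total counts alone, limma and the stricter filter.

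NTRK3, the receptor of NTF3, had 5 counts in all vehicle libraries and 18 in all diclofenac libraries. The ratio of count rates was 2.49 (95% exact interval 0.893 to 8.60). This interval and those below cover counting error only.

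Set side by side per length, NGFR was above NTRK2 and NTRK3 already under vehicle. Normalized CPM per kilobase of annotated exon were 0.509 ± 0.0407 for NGFR, 0.0564 ± 0.0181 for NTRK2 and 0.00283 ± 0.00273 for NTRK3 in the vehicle libraries. Of the summed level per length of these 3 receptors, NGFR made up 86.6, 93.0 and 88.8% in vehicle replicates 1 to 3. It made up 97.9, 98.4, 98.6 and 98.3% in diclofenac replicates 1 to 4. Every diclofenac library was above every vehicle library, which follows from the change in NGFR that chose the group.

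The ligands among the members were at or near 0. BDNF had 0, 2 and 0 counts in the vehicle libraries and 1, 0, 1 and 1 in the diclofenac libraries, with no difference detectable at this depth (ratio of count rates 1.04, 95% exact interval 0.119 to 12.4). NTF4 had 4, 4 and 1 counts under vehicle and 6, 2, 1 and 5 under diclofenac (ratio 1.08, interval 0.435 to 2.82). NTF3 had no count in any of the 7 libraries, which allows up to 0.0413 CPM over the vehicle libraries and 0.0324 CPM over the diclofenac libraries. The higher NGFR was thus measured in libraries whose BDNF, NTF3 and NTF4 transcripts were at or near the floor in both groups.

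BDNF-AS, an antisense transcript on the strand opposite to BDNF, rose. It had 14, 13 and 18 counts under vehicle and 43, 40, 43 and 49 under diclofenac, with no overlap (0.669 and 1.81 normalized CPM, a log2 fold change of 1.42 with an SE of 0.217, edgeR adjusted p = 1.99e-05). The library kit keeps the strand, but the sources used here do not say whether the counting used it, so reads of BDNF and BDNF-AS may not be told apart. The row NTRK3-AS1 had no count.

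SORT1, the co-receptor for precursors, was much more abundant than NGFR under vehicle and moderately lower under diclofenac. Its normalized CPM were 113, 111 and 107 in the vehicle libraries and 91.2, 89.1, 79.6 and 87.7 in the diclofenac libraries. The groups did not overlap, and diclofenac replicate 3 was the lowest. The log2 fold change was -0.35 (SE 0.0493), or -0.16 when libraries were scaled by total counts alone. Per length, NGFR stood at 4.23 ± 0.378% of SORT1 in the vehicle libraries and at 55.1 ± 3.53% in the diclofenac libraries.

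MAGED1, the intracellular adaptor, had the highest level of the members and also fell. Its normalized CPM were 517, 524 and 501 under vehicle and 349, 373, 403 and 392 under diclofenac, again with no overlap. The log2 fold change was -0.44 (SE 0.0512), or -0.26 by total counts alone. Genes of the same high level were mostly lower too: the 343 others within 0.5 log2 CPM had a median log2 fold change of -0.31, and 86.0% of them were called. For SORT1 the 2169 genes of like level had a median of -0.14. Among the diclofenac libraries, MAGED1 was lowest in replicate 1 and highest in replicate 3, whereas NGFR and SORT1 were highest in replicate 1.

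Of the 4 tested members, 1 was called higher and 2 lower at an edgeR adjusted p under 0.05. Over all tested genes 59.7% were called, 30.2% higher and 29.5% lower, and 58.5% did not overlap between the groups. Since the contrast chose the group, nothing is read from the members' count. The order of the members by level per length under vehicle was MAGED1 (85.4 ± 1.95), SORT1 (12.0 ± 0.329), NGFR (0.509), NTF4 (0.0912 ± 0.0537), NTRK2 (0.0564), BDNF (0.00419 ± 0.00726), NTRK3 (0.00283) and NTF3 at 0. NTF4 and NTRK2 did not differ beyond their spread, nor did BDNF and NTRK3. Under diclofenac MAGED1 (63.0 ± 3.96) and SORT1 (9.49 ± 0.554) remained first and second, and NGFR reached 5.22 ± 0.247.

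**Figure D2:**
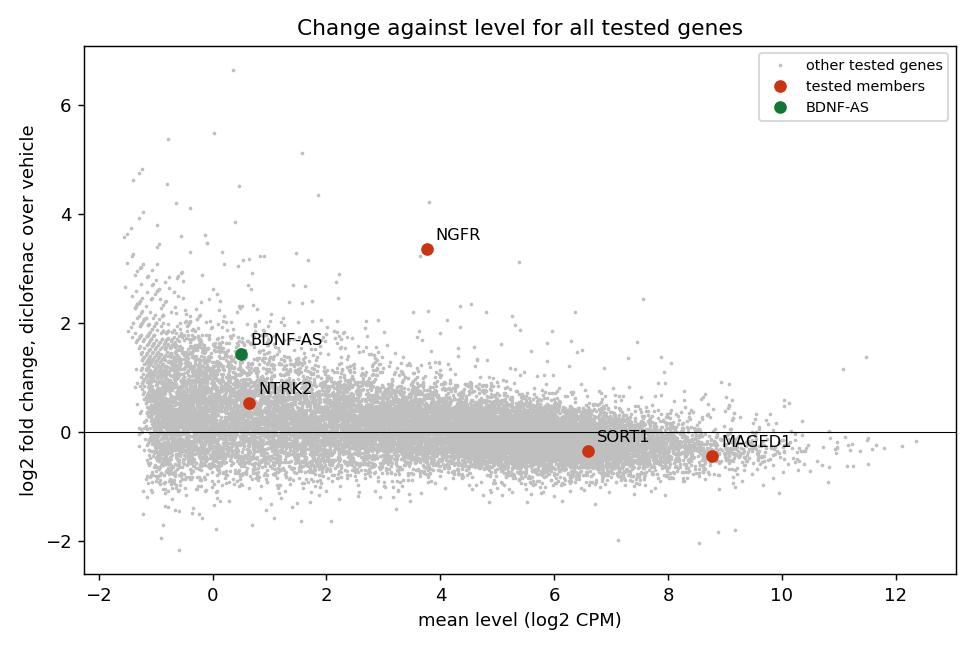
Log2 fold change of diclofenac over vehicle (y axis) against the mean level in log2 CPM (x axis) for all 18311 tested genes (grey), with the 4 tested members in red and BDNF-AS in green. NGFR stands at 3.36, with 1 of the 1885 other genes within 0.5 log2 CPM of its level above it. NTRK2, SORT1 and MAGED1 lie within the cloud.

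SORT1 and MAGED1 are the members that fell and that have start regions in the RefSeq promoter table, so the window at the start nearest to a principal transcript is shown for each. Each window runs from 250 bases before to 50 after the start, 5′ to 3′ on the strand of the gene, and capitals mark the GC box GGGCGG (build GRCh38.p14). SORT1 lies at chr1:109397869-109398168 on the minus strand and MAGED1 at chrX:51893373-51893672 on the plus strand.
SORT1: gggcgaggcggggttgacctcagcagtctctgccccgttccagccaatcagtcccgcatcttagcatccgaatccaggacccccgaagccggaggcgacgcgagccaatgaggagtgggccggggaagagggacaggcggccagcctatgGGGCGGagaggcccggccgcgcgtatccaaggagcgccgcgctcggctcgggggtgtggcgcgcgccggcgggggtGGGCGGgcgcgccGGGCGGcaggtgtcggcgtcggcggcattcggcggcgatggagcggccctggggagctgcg
MAGED1: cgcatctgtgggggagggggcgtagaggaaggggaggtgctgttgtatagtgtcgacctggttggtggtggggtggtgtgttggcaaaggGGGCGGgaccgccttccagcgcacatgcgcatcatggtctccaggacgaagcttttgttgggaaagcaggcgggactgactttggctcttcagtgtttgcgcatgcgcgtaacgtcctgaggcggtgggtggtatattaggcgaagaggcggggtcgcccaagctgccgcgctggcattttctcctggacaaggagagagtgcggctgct
The SORT1 window is 74.7% G and C with 3 GC boxes, and the MAGED1 window is 61.0% G and C with 1.

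Of the 8 members, 7 had 17 windows in this table, and NGFR had no entry. On either strand, the GC box was found in 10 of the 17 windows, against 45.0% of 35116 windows in the table. The element TGATGNAAN, bound by C/EBP and ATF factors, was found in 1, the MAGED1 window not shown (3.61% of all). CGTCA, part of a CREB site, was found in 3 (24.6%), and the E-box CACGTG in 1, of BDNF (7.26%). The EGR site GCGTGGGCG was found in none (0.795%). No match overlapped one of another motif. A match is only a run of letters and shows no binding.

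The wider pathway moved in both directions, and the count of calls in each list is set against the 59.7% called over all tested genes and their median log2 fold change of 0.0209. Weakly expressed genes leaned upward: the 2583 tested genes under 0 log2 CPM had a median of 0.408. Among genes named below for their change, SORCS2, MAGEH1, MAPK10, SHC3, SHC4, TNFRSF9 and TNFRSF10D missed the filter's minimum in 1 or more vehicle libraries. They passed it through their level under diclofenac, so no p is given for them. The same holds for CD40 and TNFRSF8, which were not called. With no filter, SHC4, TNFRSF9, TNFRSF10D and MAPK10 were still called, and SORCS2, MAGEH1 and SHC3 were not. These calls come from the same contrast by which the genes were named, so they give no separate support. Among 7 tested genes of the sortilin relatives and co-receptors, 2 were higher and 2 lower (median 0.0922). By total counts alone these were 4 and 1, and with upper-quartile factors 4 and 2. Without SORCS2, 1 was higher and 2 lower of 6 (median 0.00623). The sortilin relative SORCS1 rose from 2.18 ± 0.386 to 6.45 ± 0.541 normalized CPM, a log2 fold change of 1.55 with an SE of 0.135 (edgeR adjusted p = 2.78e-08). Its libraries did not overlap. SORCS2, another relative, went from 0.340 to 0.603, and its call was lost under 6 of the 14 alternatives that tested it. RTN4RL1, a relative of the Nogo receptor, fell from 3.26 ± 0.220 to 2.25 ± 0.283, a log2 fold change of -0.53 with an SE of 0.143 (edgeR adjusted p = 0.00362). SORCS3 had no count.

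Among genes that process neurotrophin precursors, 1 was higher and 3 were lower of 6 tested (median -0.14), but 2 and 2 by total counts alone and 2 higher and 3 lower with upper-quartile factors. PLAT, tissue plasminogen activator, which starts the plasmin cleavage of proBDNF, fell from 63.2 ± 2.20 to 46.0 ± 1.77 normalized CPM, a log2 fold change of -0.46 with an SE of 0.0482 (edgeR adjusted p = 2.86e-07). The proprotein convertases PCSK6 and PCSK7 were lower, with log2 fold changes of -0.34 (SE 0.0505) and -0.22 (SE 0.0548). By total counts alone PCSK7 stood at -0.04 and did not pass. PLG, the precursor of plasmin, had 0 counts in the vehicle and 2 in the diclofenac libraries.

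NGFR is cut by the sheddase ADAM17 and then by γ-secretase. Of 7 tested genes of this step, 3 were higher and 2 lower (median 0.0735), with 4 and 1 by total counts alone. Besides APH1B, the higher ones were ADAM17 (log2 fold change 0.22, SE 0.0552) and ADAM10 (0.20, SE 0.0540). Both were named after their values were seen. NCSTN, nicastrin, a subunit of γ-secretase, fell from 76.5 ± 3.11 to 54.5 ± 2.82 normalized CPM, a log2 fold change of -0.49 with an SE of 0.0504 (edgeR adjusted p = 2.11e-07). APH1A had a log2 fold change of -0.25 (SE 0.0451), near the median of -0.26 of the 757 other genes within 0.5 log2 CPM. By total counts alone APH1A stood at -0.06 and was not called. Its paralog APH1B went from 8.12 ± 0.889 to 9.70 ± 0.981 normalized CPM with overlapping groups, and its call (edgeR adjusted p = 0.0417) was lost under 7 of 15 alternatives.

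The adaptors of NGFR split, with 6 higher and 6 lower of 14 tested (median -0.11). Without MAGEH1, 5 were higher and 6 lower of 13 (median -0.20). ZNF274, a zinc finger protein, rose from 17.7 ± 0.203 to 30.8 ± 1.41 normalized CPM, a log2 fold change of 0.80 with an SE of 0.0590 (edgeR adjusted p = 3.54e-09). TRAF2, an adaptor of TNF receptors, fell from 61.5 ± 2.68 to 39.7 ± 3.34, a log2 fold change of -0.63 with an SE of 0.0603 (edgeR adjusted p = 8.61e-08). MAGEH1, a relative of MAGED1, went from 18 to 50 counts, and its call was lost under 4 of the 10 alternatives that tested it. NDN, another relative, had no count in any library.

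The JNK arm, the kinase cascade through which NGFR can signal death, also split, with 6 higher and 5 lower of 14 tested (median 0.0556) but 9 and 3 by total counts alone. The kinase MAP3K12 rose from 8.38 ± 0.707 to 14.1 ± 0.969 normalized CPM, a log2 fold change of 0.76 with an SE of 0.0856 (edgeR adjusted p = 6.68e-07). BBC3 (PUMA), a pro-apoptotic BCL2 protein that is also a p53 target, rose from 24.7 ± 1.14 to 37.0 ± 0.455, a log2 fold change of 0.58 with an SE of 0.0531 (edgeR adjusted p = 5.02e-08). MAPK10, the neuronal JNK, went from 37 to 90 counts with overlapping groups, and its call was lost under 4 of the 14 alternatives that tested it. Without MAPK10, 5 genes of the arm were higher and 5 lower of 13 (median 0.0377).

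Of 23 tested adaptors and effectors of the TRK kinases, 11 were higher and 3 lower (median 0.115), with 16 and 1 by total counts alone. The share called, 60.9%, is near that of all genes. Without SHC3 and SHC4, 9 were higher and 3 lower of 21 (median 0.0360). The largest changes were those of SHC adaptors, which couple receptors to RAS. SHC4 went from 0.390 ± 0.0855 to 1.14 ± 0.0925 normalized CPM without overlap, a log2 fold change of 1.55 with an SE of 0.260, where the 2012 other genes within 0.5 log2 CPM of its level had a median of 0.328. SHC2 rose from 15.1 ± 1.15 to 25.4 ± 1.38, a log2 fold change of 0.75 with an SE of 0.0691 (edgeR adjusted p = 5.51e-08). SHC3 went from 21 to 55 counts with overlapping groups, and its call was lost under 8 of the 14 alternatives that tested it.

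In the trafficking of sortilin, 1 of 10 tested genes was higher and 4 were lower (median -0.03). This direction turned with the scaling, to 6 higher and 2 lower by total counts alone and 4 higher and 3 lower with upper-quartile factors. IGF2R, a receptor that sorts lysosomal enzymes, rose from 97.9 ± 6.42 to 132 ± 3.01 normalized CPM, a log2 fold change of 0.43 with an SE of 0.0482 (edgeR adjusted p = 5.28e-07). GGA2, an adaptor that sorts sortilin at the Golgi, had a log2 fold change of -0.36 (SE 0.0437). GRN, progranulin, a ligand of sortilin, had one of -0.30 (SE 0.0424). Other genes within 0.5 log2 CPM had medians of -0.18 for IGF2R, -0.21 for GGA2 and -0.25 for GRN. GRN thus lay near the median of genes of its level.

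Of 28 other receptors of the TNF receptor family, 15 were tested, of which 8 were higher, 2 lower and 5 not called (median 0.302). The share called, 66.7%, is read against the 59.7% of all genes. Without CD40, TNFRSF8, TNFRSF9 and TNFRSF10D, which passed the filter through their diclofenac level, 6 were higher and 2 lower of 11 (median 0.302). The lower ones were TNFRSF19 and RELT, named after their values were seen. TNFRSF9, a costimulatory receptor of T cells, went from 6 to 209 counts, a log2 fold change of 4.51 with an SE of 0.407. The 1694 other genes near the level of TNFRSF9 had a median of 0.286. TNFRSF12A, the receptor of TWEAK, rose from 8.04 ± 0.551 to 18.4 ± 2.54 normalized CPM, a log2 fold change of 1.19 with an SE of 0.104 (edgeR adjusted p = 2.88e-08). TNFRSF10D, a TRAIL receptor without a working death domain, went from 0.380 ± 0.0938 to 0.864 ± 0.274, a log2 fold change of 1.14 with an SE of 0.327, where the 2181 other genes near its level had a median of 0.325.

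**Figure D3:**
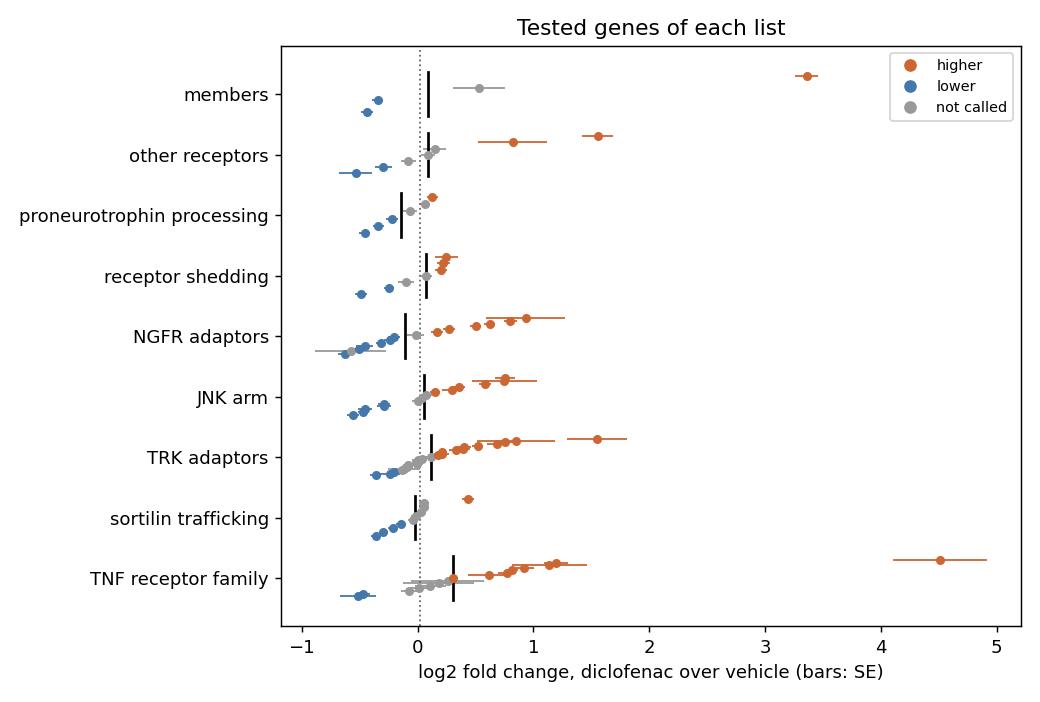
Log2 fold change of diclofenac over vehicle with its SE (x axis) for every tested gene of the members and of 8 lists of pathway genes (rows), coloured by the edgeR call. Black bars are list medians and the dotted line is the median of all tested genes, 0.0209; NGFR (3.36) and TNFRSF9 (4.51) stand apart on the right.

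The genes nearest to NGFR in profile were GDF15, ARRDC3, VLDLR-AS1, BEST1 and HSPB8, in this order. Likeness was the root mean square difference in log2 CPM, after subtracting each gene's vehicle mean, over the 7 libraries and among 15487 other tested genes with a mean of at least 1 normalized CPM. It was 0.124 for GDF15, a secreted stress hormone, and 0.174 for ARRDC3, an arrestin-domain adaptor. It ranged from 0.252 to 0.314 for VLDLR-AS1, a noncoding transcript, BEST1, an anion channel, and HSPB8, a small heat shock protein. GDF15 stood at nearly the same level as NGFR as well, with 2.12 ± 0.114 and 19.96 ± 2.01 normalized CPM. VLDLR-AS1, BEST1 and HSPB8 had vehicle means of 0.135, 0.426 and 0.300 normalized CPM and reached a mean of 1 through their diclofenac libraries. At such levels the prior count of 2 in the log2 CPM shrinks the step. VLDLR-AS1 had an edgeR log2 fold change of 3.86, but stood at 2.84 to 3.53 in this profile. The measure mostly reflects the step between the groups, since NGFR itself varied little within them.

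**Figure D4:**
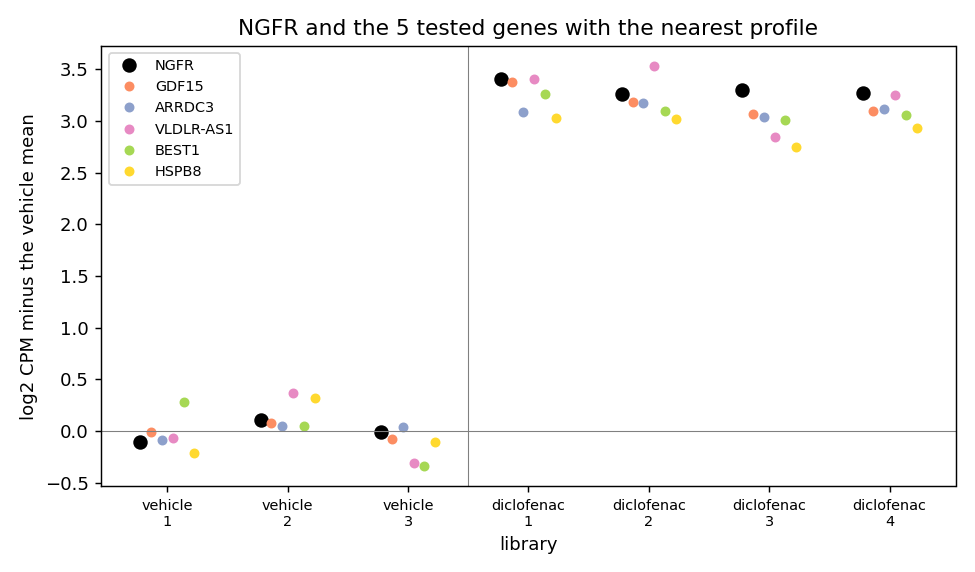
Level in log2 CPM minus the gene's vehicle mean (y axis) in each of the 7 libraries (x axis) for NGFR (black) and the 5 tested genes nearest to it in profile (colours). All 6 lie near 0 in the vehicle libraries and near 3 in the diclofenac libraries; NGFR is between 3.26 and 3.41 there.

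NGFR is also carried by neural crest derivatives, Schwann cells and stromal cells, so markers of these were summed in each library. The 11 neural crest and Schwann markers summed to 127 to 139 normalized CPM under vehicle and 124 to 131 under diclofenac, and the ranges overlapped. CDH19 and TFAP2B had no count, while SOX10 had 6 and 13 counts and S100B 0 and 4 counts in all libraries of each group. FOXD3, ERBB3, MITF, TFAP2A and PAX3 reached 1 CPM in all libraries. PAX3 stood at 15.7 and 22.1 and TFAP2A at 64.2 and 49.8 normalized CPM under vehicle and diclofenac. The 9 stromal markers summed to 17.8 to 20.5 under vehicle and 14.97 to 16.2 under diclofenac, of which COL1A1 alone reached 1 CPM in all libraries.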

How the data were processed

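Total RNA of TE11 cells was extracted with a column kit, and 7 libraries were prepared with a strand-keeping kit, per the labels' protocols. The values are raw counts per gene as deposited by the authors, with 1 column per library and no normalization. The submitters' processing notes name DESeq and the mouse build GRCm38, although the rows carry human symbols. The aligner, counter, strand setting and annotation were not given in the sources used here.

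All members and gene lists were chosen with earlier results of these data known. Genes were filtered with filterByExpr (minimum count 10, minimum total 15), which left 18311 genes, scaled by TMM factors and tested for diclofenac against vehicle in edgeR 4.0.16 (R 4.3.3) by its quasi-likelihood test. P-values were adjusted by Benjamini-Hochberg over all tested genes, with a threshold of 0.05. The SE is the absolute log2 fold change divided by the square root of F. The steps were tested on simulated data. No library repeats another: within groups, chi-square values divided by their degrees of freedom were 2.17 to 7.40. Exon lengths and overlaps came from GENCODE, and promoters from RefSeq. Because the authors' build is open, GENCODE was used only for lengths, overlapping rows and principal starts. Exact intervals of count ratios are at 95%, and a count of 0 allows 3 counts.

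Named genes are the members, the antisense rows, up to 3 called genes with the largest change in each of 8 lists, the 5 genes most like NGFR (prior count 2 for log2 CPM) and cell type markers; genes named for a count of 0 or to spell out a count were added after their values were seen. Some genes of the pathway are not reported here and were left out of the lists and their counts. Alternatives were DESeq2 size factors, upper-quartile factors, total counts alone, the DESeq2 1.42.0 Wald test, limma 3.58.1 with trend, no filter, a filter of 1 CPM in every library of a group, leaving out each library, a replicate block, and the longest transcript in place of all exons.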

Additional observations from a re-analysis of the deposited data

Results flagged for a closer look

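Among the genes named, 2 had a diclofenac library set apart from the other 3. ZNF274 was at 28.7 normalized CPM in diclofenac replicate 1, against 31.3 to 31.8 in the others. SHC4 was at 1.27 in diclofenac replicate 3, against 1.08 to 1.11 in the others. Chance sets a library apart in this way in about 5% of groups, and 38 genes were examined. In both genes every diclofenac library stayed above every vehicle library.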

How the results depend on the processing

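NGFR, SORT1 and MAGED1 kept their direction and their call under all 15 alternatives, and the log2 fold change of NGFR ran from 3.30 to 3.41 when 1 library was left out. The alternatives draw on the same libraries and contrast that chose the group, so they describe the settings and are no test of the members. NTRK2, not called in the main setting, passed with upper-quartile factors (log2 fold change 0.62), total counts alone (0.71), limma (0.57) and the stricter filter (0.55). It ran from 0.30 to 0.71 when 1 library was left out, and passed without vehicle replicate 1 (0.71) and without diclofenac replicate 3 (0.63). With total counts alone the median over all tested genes went from 0.0209 to 0.202 on the log2 scale, and the split of all calls from 5535 higher and 5402 lower to 8635 and 3029; with upper-quartile factors it was 6994 and 4171. That scaling raised the calls of the sortilin trafficking list from 5 to 8. Of 30 named genes outside the members, 23 kept their call under every alternative that tested them, and some weak genes were dropped by a filter. The exceptions are APH1A, APH1B, PCSK7, MAGEH1, MAPK10, SHC3 and SORCS2. All 30 except BDNF-AS were named for their change in this same contrast, so the kept calls give no separate support. With the longest transcript as length, levels per kilobase under vehicle and diclofenac were 94.8 and 70.0 for MAGED1, 15.7 and 12.4 for SORT1, 0.618 and 6.34 for NGFR, and 0.133 and 0.197 for NTRK2. Groups share replicate numbers, but same-numbered libraries deviated together with correlations of only -0.05 to 0.03, so the main setting used no pairing. These correlations rest on replicates 1 to 3 and cannot show whether same-numbered libraries were handled together. A replicate block on replicates 1 to 3 called 9831 genes, against 10169 without the block on the same 6 libraries, and gave a log2 fold change of 3.38 for NGFR. Genes at a few counts, such as NTRK3, BDNF and NTF4, are limited by depth.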
